A study of Sus scrofa with 12 samples.

Results

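SLC7A5 (identifier ENSSSCG00000032996 in the files) is the light chain of the L-type amino acid carrier LAT1, and it was followed across all 12 RNA-seq libraries of the series. It was found as the 1 row, of 31903 gene identifiers in all, that the study's gene tables for fat and muscle name SLC7A5. The gene was chosen by its FPKM, which was higher in the high-fat group of both tissues, so its values between high and low groups are given as a description with no test. The animals were Dingyuan pigs, a native Chinese breed with much fat, and the labels give 300 days of age in every group. LBF and HBF are back subcutaneous fat of pigs with low and with high backfat thickness, and LIMF and HIMF are LD (longissimus dorsi) muscle of pigs with low and with high intramuscular fat. Each of these 4 groups had 3 libraries. All groups shared the breed, the age and the rearing, and none carried a transgene or was treated. Per the study's methods, the pigs were unmated sows of similar body weight, picked from a larger herd as extremes of live backfat. Fat samples were then grouped by backfat thickness and muscle samples by intramuscular fat content, so the groups differ in whatever goes with fatness. The sources do not say whether a fat and a muscle library came from the same pig.

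LAT1 sits in the cell surface as a pair of SLC7A5 with the heavy chain SLC3A2, and it exchanges large neutral amino acids such as leucine, isoleucine, phenylalanine and tryptophan, as well as thyroid hormones, for amino acids from inside the cell. Leucine that enters this way is read by sestrins and the Rag proteins, which switch on the growth kinase mTORC1, and in muscle the branched-chain amino acids are both building blocks for protein and fuel. The gene is known to be induced when cells are short of amino acids and by MYC and hypoxia-inducible factors in growing cells.

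In the RefSeq annotation of Sscrofa11.1, the build of the files, SLC7A5 spans positions 1545940 to 1574298 of chromosome 6. The entry covers 28359 bases with 1 transcript and carries the type lncRNA, although the gene codes for a protein in other mammals. Its coding neighbours are CA5A (1495615 to 1539390), a mitochondrial carbonic anhydrase, and KLHDC4 (1627054 to 1672328), a kelch-domain protein. Levels are given as FPKM, fragments scaled to the length of the transcript and to the mapped fragments of the library, as the authors deposited them.

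SLC7A5 had a separate range in each of the 4 groups. In back subcutaneous fat the 3 LBF libraries held 0.26, 0.396 and 0.584 FPKM, and the 3 HBF libraries held 1.43, 0.833 and 1.1 FPKM. Every HBF library was above every LBF library, and the lowest HBF value was 1.42 times the highest LBF value. In LD muscle the LIMF libraries held 3.05, 2.24 and 2.7 FPKM, whereas 8.53, 7.94 and 7.75 FPKM were listed for HIMF. Here the gap was wider, with the lowest HIMF value at 2.54 times the highest LIMF value.

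**Figure D1:**
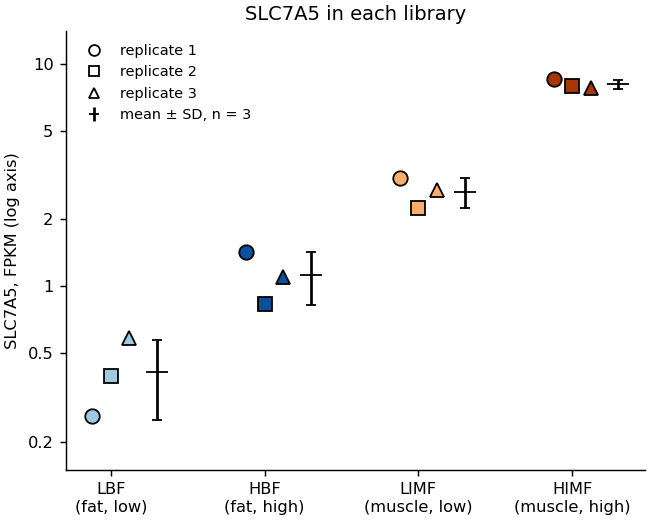
SLC7A5 in FPKM (vertical log axis) in each library of the 4 groups, with a symbol for each replicate number and a bar for the mean ± SD of 3 libraries. The groups stand in the order LBF, HBF, LIMF, HIMF with no overlap between neighbours.

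The mean level was 0.413 ± 0.163 FPKM (SD, n = 3) for LBF and 1.12 ± 0.299 for HBF. It was 2.66 ± 0.406 FPKM for LIMF, while HIMF had the highest mean at 8.08 ± 0.407. No 2 neighbours in the order overlapped. The SD was 39.4% of the LBF mean and 26.7% of the HBF mean, whereas in muscle it was 15.2% for LIMF and 5.04% for HIMF, so the fat libraries spread more relative to their level. Set against the other genes above 0.05 FPKM of the same library, SLC7A5 was a low gene in fat and an above-median gene in HIMF. It exceeded 15.2% to 23.5% of them for LBF and 27.0% to 31.7% for HBF. For LIMF this was 48.5% to 55.0%, and for HIMF 71.7% to 74.2%.

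Fold changes were computed on log2(FPKM + 0.1), which understates the change of a gene with a low FPKM. SLC7A5 was 1.27 higher in HBF than in LBF on this scale (SE 0.33) and 1.58 higher in HIMF than in LIMF (SE 0.2). The ratio of the group means of FPKM was 2.71 in fat and 3.03 in muscle. Of 16239 genes measured in fat, 252 had a larger log2 fold change, and of 14292 in muscle, 108 did. The change in fat minus the change in muscle was -0.31 (SE 0.38), given as a description with no test. It ran from -0.73 with a pseudocount of 1 to -0.07 without LBF replicate 3.

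Few genes shared the pattern. With a log2 fold change of at least 1 and groups that did not overlap in both tissues, 4 of 13767 genes were counted, which is 0.0291%, and the opposite pattern was met by 2 genes, 0.0145%. Besides SLC7A5 they included GALNT16, which starts O-linked sugar chains on proteins, and MZB1, a chaperone of antibody-secreting B cells. The log2 fold change of GALNT16 was 1.41 in fat and 1.8 in muscle, and that of MZB1 was 1.16 and 1.19. Unlike SLC7A5, GALNT16 was lower in muscle than in fat (log2 difference -4.94), and MZB1 (-0.5) overlapped between the tissues.

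The level of SLC7A5 in muscle against fat was not used to choose the gene and was tested. All 6 muscle libraries were above all 6 fat libraries, which held for 10.4% of all genes, with means of 5.37 ± 2.99 and 0.767 ± 0.443 FPKM (SD, n = 6). The lowest muscle library held 1.57 times the level of the highest fat library, and the ratio of means was 7.0. The log2 difference was 2.62 (SE 0.19, adjusted p = 1.13e-07 in limma with Benjamini-Hochberg adjustment over 15965 genes). An exact two-sided permutation test over the 924 ways to divide the 12 libraries gave p = 0.00216, the smallest it can give.

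The difference between the tissues held at both levels of fatness. Among the low groups, LIMF exceeded LBF by 2.47 on the log2 scale (SE 0.27, adjusted p = 7.83e-06 in limma), and among the high groups HIMF exceeded HBF by 2.77 (SE 0.27, adjusted p = 2.71e-06 in limma). As deposited, the median gene was 0.965 lower in muscle than in fat on the log2 scale, so most genes lay below fat and SLC7A5 lay against that shift. Scaled by the median of ratios, the median of all genes came to -0.122 and SLC7A5 to 3.57. After quantile normalization they came to -0.065 and 3.75. In bulk tissue a smaller number of cells of a type and less RNA in each cell cannot be told apart.

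SLC3A2, the heavy chain that SLC7A5 needs as its partner, did not show its pattern. In fat SLC3A2 held 68.4, 94.3 and 60.3 FPKM in LBF and 71.6, 54.0 and 59.4 in HBF. The muscle values were 59.7, 99.6 and 33.6 FPKM for LIMF, and 50.1, 102 and 63.8 for HIMF. The groups overlapped in both tissues, with log2 fold changes of -0.25 (SE 0.2) in fat and 0.23 (SE 0.42) in muscle. Between the tissues the log2 difference of SLC3A2 was -0.08 (SE 0.26, adjusted p = 0.793 in limma). FPKM are scaled to transcript length, so the levels of both chains can be set side by side. For each FPKM of SLC7A5 there were 263, 238 and 103 FPKM of SLC3A2 in LBF and 50.1, 64.9 and 54.1 in HBF. For the LIMF libraries the ratio was 19.6, 44.5 and 12.5, and for HIMF it was 5.87, 12.8 and 8.23. SLC3A2 was above SLC7A5 in every library, but it also pairs with other light chains such as SLC7A8. In LIMF replicate 2 SLC7A8 held 103 FPKM and SLC3A2 99.6, so an excess over all its partners is not shown. The ratio to SLC7A5 was smaller in the high group of each tissue, without overlap in fat. In muscle the ratio of HIMF replicate 2 lay just above that of the lowest LIMF library.

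**Figure D2:**
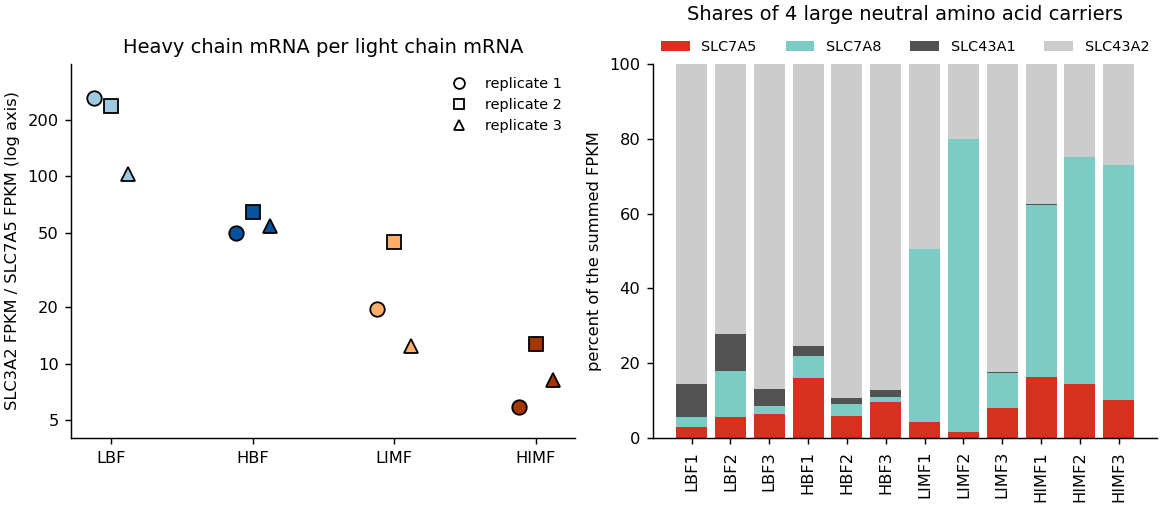
Left, SLC3A2 FPKM divided by SLC7A5 FPKM (log axis) in each library by group, falling from 263 in LBF replicate 1 to 5.87 in HIMF replicate 1. Right, the percent of the summed FPKM of 4 large neutral amino acid carriers that each carrier made up in each library, with SLC43A2 as the largest share in every fat library and SLC7A8 from 9.19% to 78.1% in muscle.

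Other carriers take up the same amino acids. SLC7A8 is the light chain of LAT2, a close relative of LAT1, and SLC43A1 and SLC43A2 (LAT3 and LAT4) carry large neutral amino acids without a heavy chain. Of the summed FPKM of these and SLC7A5, SLC7A5 made up 3.07%, 5.72% and 6.5% in LBF and 16.2%, 5.83% and 9.75% in HBF. Its share of the sum was 4.39%, 1.7% and 8.15% in LIMF, while HIMF had 16.3%, 14.6% and 10.2%. The share was higher in HIMF than in LIMF in all libraries, and in fat the lowest HBF library (5.83%) lay inside the range of LBF. SLC43A2 made up most of the sum in fat, with 72.3% to 89.2%. In muscle SLC7A8 made up between 9.19% and 78.1%.

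The other carriers of these amino acids did not share the pattern of SLC7A5. SLC43A1 was lower in HBF, with 0.742, 0.677 and 0.415 FPKM in LBF and 0.243, 0.237 and 0.212 in HBF (log2 fold change -1.07, SE 0.29). SLC43A2 was lower in HIMF, with 34.3, 26.6 and 27.2 FPKM for LIMF against 19.5, 13.5 and 20.6 for HIMF (log2 fold change -0.73, SE 0.23). SLC7A8 ranged from 3.04 to 103 FPKM within LIMF alone, and its 24.1, 33.0 and 47.9 FPKM in HIMF lay inside that range. Neither SLC43A1 nor SLC43A2 passed the test across all genes.

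A list of 20 cell surface amino acid carriers was set beside SLC7A5, of which 19 were matched to an identifier and 18 passed the limit on mean level in each tissue. A call needed both an adjusted p under 0.01 in limma and a log2 fold change of 1 or more in size. The study's own test, with DESeq2, used the same limits and did call genes in both tissues. The absence of a call here is therefore not evidence that a gene did not change. None of the carriers was called between HBF and LBF, where 0% of the 16239 genes were called, with 1520 higher (9.36%) and 686 lower (4.22%) at an unadjusted p under 0.05. The higher ones were 68.9% of those passing as deposited, but 47.6% when scaled by the median of ratios and 47.2% after quantile normalization. Of the carriers, 2 were higher and 3 lower in HBF at that unadjusted limit. By groups that did not overlap, 3 carriers were higher and 3 lower in HBF, against 13.9% and 6.46% of all genes in those directions. The higher ones were SLC7A1 (0.77), a carrier of arginine and lysine, and the glutamine carriers SLC38A1 (0.88) and SLC38A2 (0.48). Without LBF replicate 1 the value of SLC38A2 was 0.15, and with a pseudocount of 1 that of SLC38A1 was 0.24. The lower ones were SLC43A1, the glutamine carrier SLC38A3 (-1.93) and SLC16A10 (-0.61), which lets aromatic amino acids leave the cell. The median log2 fold change of the 18 carriers was 0.06, and that of all genes was 0.089.

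**Figure D3:**
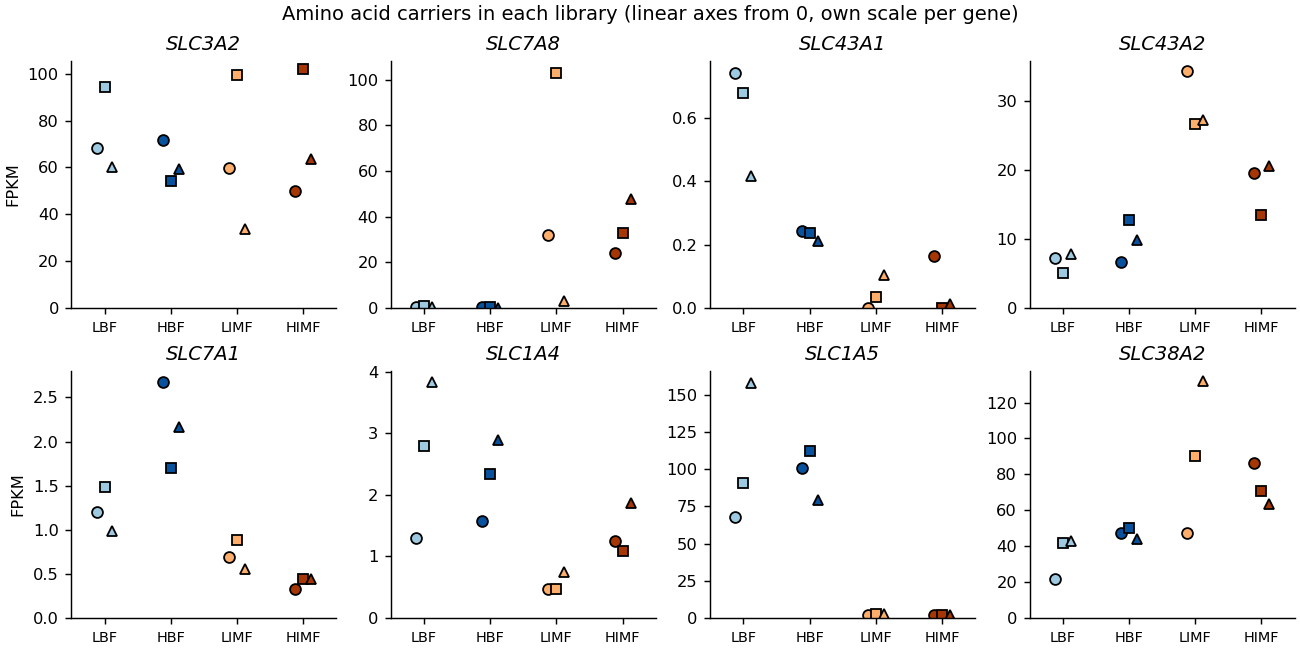
FPKM (linear axes from 0, a scale of its own for each gene) of SLC3A2 and 7 other carriers in the 3 libraries of each group, with circles, squares and triangles for replicates 1, 2 and 3. SLC43A2 is lower in HIMF than in LIMF, SLC43A1 is lower in HBF than in LBF, and SLC1A4 is higher in HIMF than in LIMF.

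In muscle none of the carriers was called between HIMF and LIMF, where 0% of 14292 genes were called, with 644 higher (4.51%) and 360 lower (2.52%) at an unadjusted p under 0.05. Of those passing, 64.1% were higher as deposited, 51.9% when scaled by the median of ratios and 57.9% after quantile normalization. At that limit 1 carrier was higher and 3 were lower. By groups that did not overlap, 1 carrier was higher and 3 were lower in HIMF, against 7.93% and 4.74% of all genes. The higher one was SLC1A4, a carrier of alanine, serine and cysteine, at 0.478, 0.466 and 0.752 FPKM for LIMF against 1.25, 1.08 and 1.86 for HIMF (log2 fold change 1.16, SE 0.31). The lower ones were SLC43A2, SLC7A1 (-0.68) and the taurine carrier SLC6A6 (-1.76). The median of the 18 was -0.21, and that of all genes 0.038. No carrier on the list was higher without overlap in both tissues as SLC7A5 was. SLC7A1 lay above LBF in every HBF library and below LIMF in every HIMF library, and 1.18% of the genes measured in both tissues had groups apart in opposite directions.

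Between the tissues SLC7A5 stood with a minority of the carriers. Of all genes, 56.4% were called between muscle and fat, 9.29% as higher in muscle and 47.1% as lower. At an unadjusted p under 0.05, 15.9% of genes were higher and 64.7% lower in muscle. The higher ones were 19.7% of those passing as deposited, 46.9% of them when scaled by the median of ratios and 48.5% after quantile normalization. Of the carriers, 5 were called higher in muscle, and these were SLC7A8 (5.96, SE 0.7, adjusted p = 7.65e-06 in limma), SLC38A4 (5.9), SLC38A3 (4.91), SLC16A10 (2.28) and SLC43A2 (1.52). All 5 were also called higher with both other scalings. Lower in muscle were 10 carriers, led by the glutamine carrier SLC1A5 (-5.37), SLC7A7 (-4.27), which pairs with SLC3A2 as SLC7A5 does, SLC6A6 (-3.83) and SLC7A10 (-3.11). Of these 10, SLC1A4, SLC7A1 and SLC38A1 came out slightly higher in muscle with quantile normalization.

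Downstream of leucine, the genes of leucine sensing and mTORC1 were measured for 23 of 24 listed. None of these was called in either tissue. In fat, RHEB, the direct activator of mTORC1, was the 1 gene higher in HBF without overlap, against 13.9% of all genes in that direction. Its log2 fold change was 0.17, and it was 0.07 when scaled by the median of ratios and 0.09 after quantile normalization. Lower in HBF without overlap were 2 of the 23, against 6.46% of all genes. These were SESN1 and SESN2, sestrins that hold mTORC1 back until they bind leucine. SESN1 held 107, 119 and 73.0 FPKM in LBF and 29.5, 57.3 and 51.4 in HBF (log2 fold change -1.14, SE 0.29), and SESN2 changed by -0.67. In muscle 1 gene of the list was higher in HIMF without overlap, against 7.93% of all genes. This was DDIT4 (REDD1), a stress-induced brake on mTORC1, with 37.7, 51.5 and 49.5 FPKM for LIMF against 80.2, 127 and 95.6 for HIMF (log2 fold change 1.11, SE 0.24). MTOR itself held 3.93 to 4.61 FPKM in the fat and 4.81 to 9.22 in the muscle, and its groups overlapped in both. Between the tissues 2 of the 23 were called higher in muscle, against 9.29% of all genes, and 5 lower, against 47.1%. The higher ones were the arginine sensor CASTOR2 (2.25) and the Rag protein RRAGD (2.48), and CASTOR1 (-4.23) and SESN3 (-3.66) were lower, all 4 called with both other scalings too. The other lower ones, TSC1 (-1.08), RRAGB (-1.06) and DEPDC5 (-1.05), were called with neither, and DEPDC5 came to 0.4 after quantile normalization.

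**Figure D4:**
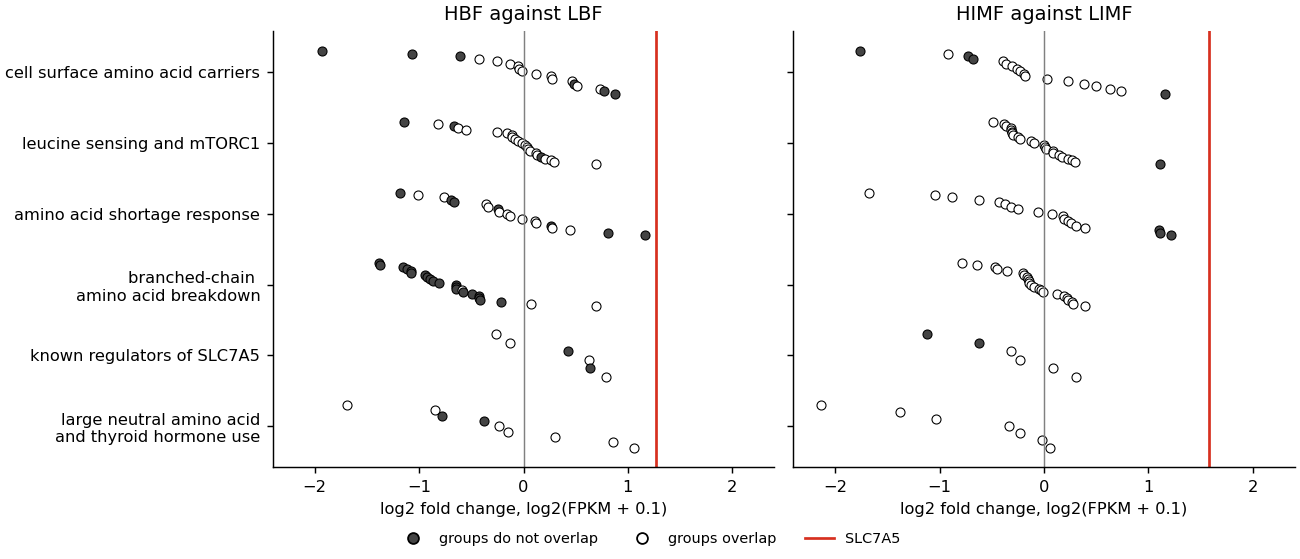
Log2 fold change on log2(FPKM + 0.1) of every tested gene of 6 lists (1 point per gene, filled where the groups do not overlap) in HBF against LBF and in HIMF against LIMF, with the value of SLC7A5 as a red line. SLC7A5 was chosen for its rise, so its line is given for orientation only. The branched-chain amino acid breakdown genes lie mostly below 0 in fat.

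The amino acid shortage response is the stress programme that raises SLC7A5 in starved cells. Of 20 listed genes 19 were matched, and none was called in either tissue. In fat 3 were higher in HBF without overlap (15.8%, near the 13.9% of all genes), namely DDIT3 (1.16), CEBPB (0.81) and EIF2AK3 (0.26), and with each of the other scalings this count was 1. CEBPB was at 0.41 without LBF replicate 1, and EIF2AK3 was at 0.17 without LBF replicate 2 and at 0.13 after quantile normalization. Lower were 4 genes (21.1%, against 6.46% of all genes), PSAT1 (-1.18), a serine synthesis enzyme, SHMT2 (-0.69), SESN2 and ALDH18A1 (-0.24, and -0.13 without LBF replicate 3). PSAT1 held 240.0, 241 and 214 FPKM in LBF and 101, 115 and 91.4 in HBF. In muscle 3 were higher in HIMF without overlap (15.8%, against 7.93% of all genes), and these were DDIT4, ASNS and PSPH. ASNS, which makes asparagine, held 0.621, 1.04 and 1.57 FPKM across LIMF against 2.16, 2.21 and 2.48 across HIMF (log2 fold change 1.1, SE 0.33). PSPH, the last step of serine synthesis, held 0.246, 0.311 and 0.784 FPKM across LIMF against 1.07, 1.08 and 1.06 across HIMF (1.22, SE 0.39). TRIB3 and CHAC1, further targets of this programme, overlapped between the groups in both tissues.

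The branched-chain amino acids that SLC7A5 brings in are broken down in mitochondria. Of the 23 matched genes of this breakdown, 20 were lower in HBF than in LBF without overlap, which is 87.0% of them against 6.46% of all genes. None was higher without overlap. At an unadjusted p under 0.05 there were 19 lower, against 4.22% of all genes, and the smallest adjusted p in limma was 0.168. The study had called several of these genes lower in HBF in the same libraries. Since the lists were chosen with earlier results of these data known, these shares are a description and not a test of the list. The 3 that overlapped were BCAT1, BCKDK and HIBADH. BCKDHB, a subunit of the enzyme complex that commits these amino acids to breakdown, had a log2 fold change of -1.38 and IVD, an enzyme of leucine breakdown, of -1.37, while SLC7A5 in the same libraries changed by 1.27. In muscle none of the 23 was free of overlap between HIMF and LIMF, against 7.93% higher and 4.74% lower among all genes, and their median log2 fold change was -0.12 where that of all genes was 0.038.

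Among genes known to drive SLC7A5 in other cells, 7 of 8 listed were matched and 6 were tested. In fat HIF1A held 21.2, 27.2 and 25.8 FPKM in LBF and 41.5, 36.0 and 37.7 in HBF (log2 fold change 0.64, SE 0.14). YAP1 (0.43), the effector of the Hippo pathway, was also higher in HBF without overlap, which made 2 of 6 against 13.9% of all genes. MYC overlapped in fat and was lower in HIMF without overlap, at 3.94, 3.33 and 5.95 FPKM for LIMF against 3.0, 2.75 and 0.829 for HIMF (-1.12, SE 0.48). TEAD1, the DNA-binding partner of YAP1, was likewise lower in HIMF (-0.62), which made 2 of 6 against 4.74% of all genes. Each of these values rested in part on 1 library, since MYC was at -0.56 without HIMF replicate 3 and TEAD1 at -0.29 without HIMF replicate 2. In muscle no gene of this list was higher in HIMF without overlap, against 7.93% of all genes. Between the tissues 5 of the 6 were called lower in muscle, against 47.1% of all genes, and TEAD1 was called higher (2.36). The lower ones were MYC (-2.86), HIF1A (-2.53), EPAS1 (-2.26), NFE2L2 (-1.47) and YAP1 (-1.36), of which NFE2L2 and YAP1 were not called when scaled by the median of ratios, nor YAP1 after quantile normalization.

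SLC7A5 also brings in aromatic amino acids and thyroid hormones, and 10 genes for their use were matched. The thyroid hormone receptors THRA (-0.38) and THRB (-0.78) were lower in HBF without overlap, 2 of 9 tested against 6.46% of all genes. None of the 7 genes tested in muscle was free of overlap, against 7.93% higher and 4.74% lower among all genes. The deiodinase DIO2, which activates thyroid hormone, overlapped in both tissues.

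The genes on either side of SLC7A5 did not show its pattern. CA5A held 0.192 to 0.461 FPKM in the fat and 0.0178 to 0.248 in the muscle, and KLHDC4 4.03 to 7.33 and 1.66 to 3.01. Both overlapped between the groups in each tissue, with log2 fold changes of 0.11 and 0.22 in fat and of 0.67 and 0.34 in muscle.

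To find the genes most like SLC7A5, the mean of each tissue was subtracted from log2(FPKM + 0.1), and Pearson's r with SLC7A5 was taken over the 12 libraries for 8728 genes with a mean above 1 FPKM in both tissues. The points share libraries and group differences, so r is given as a description. The median r was 0.128, and 2 genes reached 0.9. Among the 10 named genes with the highest r were AGAP3 (0.916), PLXNA1 (0.908), GHDC (0.898), SPTY2D1 (0.896), MRTFA (0.889), UBE2S (0.882), CXXC5 (0.877), CSK (0.876) and ABCF2 (0.874), and 3 genes without a name ranked above the last of them. The changes of the genes given ran from 0.21 to 0.74 in fat and from 0.36 to 1.16 in muscle. Of the listed amino acid genes DDIT4 had the highest r (0.61) and ALDH6A1, an enzyme of valine breakdown, the lowest (-0.79).

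**Figure D5:**
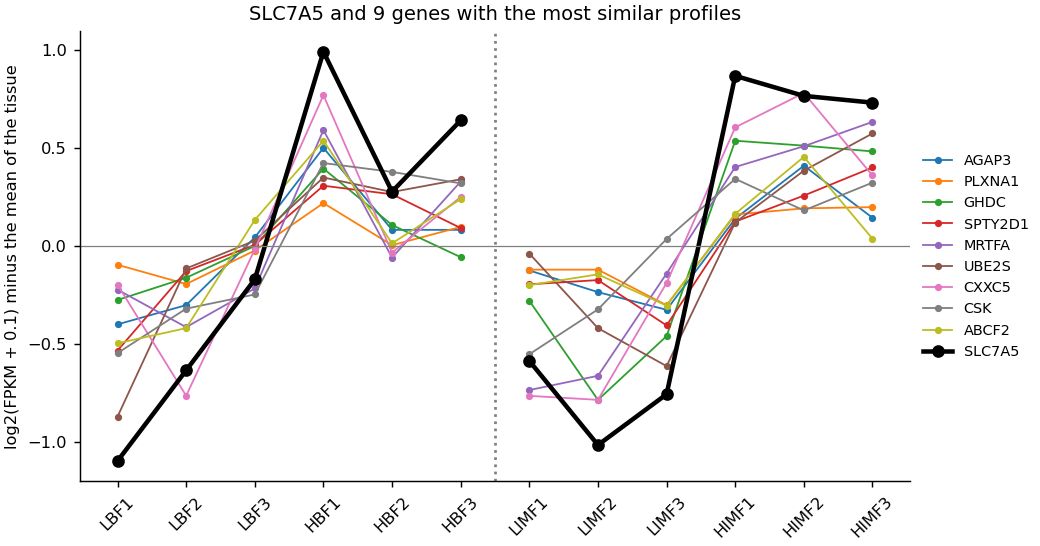
Level in each library as log2(FPKM + 0.1) minus the mean of its tissue, for SLC7A5 (thick black line) and 9 of the 10 named genes with the highest r. For SLC7A5, LBF replicate 1 is lowest and HBF replicate 1 highest in fat, and the 3 HIMF libraries lie together above the 3 LIMF libraries.

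The labelled tissues matched their markers, with summed FPKM of the 7 adipocyte markers measured at 7830 or more in every fat library and 204 or less in every muscle library. Some libraries stood apart in muscle markers. LBF replicate 3 held several, with 107 FPKM of ACTA1, 47.7 of CKM and 35.0 of TNNT3, while the other fat libraries held under 1 FPKM of each. It also held the highest SLC7A5 of LBF, and without it the log2 fold change in fat was 1.5. In muscle ACTA1 was listed at 0 in 4 of 6 libraries, all of LIMF and HIMF replicate 1. CKM was at 0 in 2, LIMF replicates 2 and 3, so these zeros lay mostly in the low group. TNNT3 was at 2570 FPKM or more in all 6, so a listed 0 need not mean absence.

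Markers of other cells moved with the groups as well. In muscle 3 of 7 adipocyte markers, ADIPOQ, PLIN1 and LEP, were higher in HIMF without overlap, and LPL was lower, against 7.93% and 4.74% of all genes. ADIPOQ held 4.27, 6.46 and 1.31 FPKM for LIMF against 21.8, 8.36 and 11.2 for HIMF. The summed FPKM of the 7 was 153 to 204 across LIMF and 97.2 to 147 across HIMF. This fall lay in LPL, with 85.1, 76.3 and 136 FPKM for LIMF against 40.4, 21.6 and 67.0 for HIMF. The highest SLC7A5 of a fat library, 1.43 FPKM, was below every muscle library, but the level in adipocytes within muscle was not measured. In fat 2 of 5 endothelial markers, DLL4 and ANGPT2, were higher in HBF without overlap, with sums of 145 to 296 in LBF and 262 to 410 in HBF. Among all genes 13.9% were higher and 6.46% lower in HBF without overlap. Of 5 macrophage markers 1 was higher (sums 42.9 to 117 and 111 to 114) and of 6 lymphocyte markers none (19.1 to 25.4 and 25.8 to 30.6). Of 6 fibroblast markers 1, ISLR, was lower, and both red cell markers were lower in HBF, with sums of 251 to 621 and 48.8 to 191. In muscle no marker of these 5 cell types was free of overlap between HIMF and LIMF, whereas the muscle marker PRKAG3 was higher in HIMF. The part of these cells in the SLC7A5 levels was not tested.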

How the data were processed

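RNA of 6 back subcutaneous fat and 6 LD muscle samples was sequenced. The authors cleaned the reads (fastp), aligned the rest with HISAT2 on Sscrofa11.1, and deposited FPKM values that Cufflinks 2.2.1 made for each Ensembl gene. The paper gives the sequencing yield, but read counts per gene were not used here, so the depth behind a single value and its counting error are unknown. FPKM totals were 420982 to 517796 per library. Of 31910 rows, those of 7 identifiers listed on 2 rows were summed. Names were given for 15027 of 31903 identifiers. Per the study's methods, the 3 libraries of a group came from different pigs.

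Differences were fitted with limma 3.58.1 in R 4.3.3, using eBayes with trend. Values were log2(FPKM + 0.1), genes needed a mean above 0.05 FPKM, and p-values were adjusted over all of them by Benjamini-Hochberg. A gene was called where the adjusted p was under 0.01 and the log2 fold change was 1 or more in size. The fit was also run on simulated data, but the outcome is not reported here and nothing is drawn from it. The gene and the lists were chosen with earlier results of these data known. Genes were named if they belonged to a list and did not overlap between groups, were called between tissues, or define the list, as well as flanking genes, genes higher in both tissues and the 10 most alike genes. Results for some of them are not reported here. ACAD8, ATF4, NPRL2, SLC7A6, TPH1 and VHL were not matched and are not analysed here. The study's proteome was not analysed here, and no sequence of the gene is given.

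Same-numbered libraries were checked for pairing by correlating their deviations from group means, which gave -0.072 to 0.244 over the group pairs, so numbers were not taken to pair the samples. Alternatives were other pseudocounts, filters, scalings, a replicate block, other eBayes settings and each library left out.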

Additional observations from a re-analysis of the deposited data

Results flagged for a closer look

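SLC7A1, the carrier of arginine and lysine, differed in direction between the tissues. It held 1.2, 1.49 and 0.989 FPKM in LBF and 2.68, 1.7 and 2.16 in HBF, and 0.69, 0.888 and 0.559 in LIMF and 0.33, 0.447 and 0.436 in HIMF. Every HBF library was above LBF and every HIMF library below LIMF. The log2 fold change was 0.77 in fat and -0.68 in muscle, and the change in fat minus the change in muscle was 1.45 (SE 0.37). With a pseudocount of 1 the changes were 0.51 in fat and -0.28 in muscle. The test of that difference in limma gave an unadjusted p of 0.00203 and an adjusted p of 0.298 over all genes, so it did not pass the correction. Across the 13767 genes measured in both tissues, 162 (1.18%) had groups that did not overlap in opposite directions.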

How the results depend on the processing

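SLC7A5 kept its direction under every alternative run, and its difference between muscle and fat kept its call in all of them. With each library left out in turn it ranged from 2.5 to 2.74 between the tissues, 1.04 to 1.5 in fat, 1.46 to 1.68 in muscle and -0.54 to -0.07 for the change in fat minus that in muscle. A pseudocount of 1 gave 1.74 between the tissues, 0.58 in fat, 1.31 in muscle and -0.73 for the change in fat minus that in muscle. That setting shifts the values by its construction, since it is larger than most of the fat values. It also brought SLC43A1 to -0.38, SLC38A3 to -0.89 and SESN2 to -0.44 in fat, and SLC6A6 to -0.68, SLC1A4 to 0.61, ASNS to 0.69 and PSPH to 0.53 in muscle. A mean FPKM above 1 removed SLC7A5 from the fat comparison, so no value was given there. The count of 4 genes higher in both tissues came to 0 with a pseudocount of 1, 11 with 0.01 and 2 with a mean FPKM above 1. It ranged from 3 to 13 with a library left out, with 13 without LIMF replicate 3, 12 without LBF replicate 1, 9 without LBF replicate 3 or HIMF replicate 1, 8 without HBF replicate 1 or 3, and 7 without LBF replicate 2 or LIMF replicate 2. With fewer libraries, groups overlap less often by construction. With a replicate block SLC7A5 was 2.62 between the tissues (adjusted p = 9.09e-07 in limma), 1.27 in fat, 1.58 in muscle and -0.31 for the difference, and no call of the lists changed. With quantile normalization 5 genes called lower in muscle came out higher, SLC38A1 at 0.07, MTHFD2 at 0.18, DEPDC5 at 0.4, SLC1A4 at 0.07 and SLC7A1 at 0.04. The number of carriers lower in HIMF without overlap was 6 without LIMF replicate 1 and 5 without HIMF replicate 1, against 3, and that of shortage response genes higher in HIMF was 5 without LIMF replicate 2, against 3. The cause of these shifts was not tested. With no read counts, the precision of low values such as SLC7A5 in LBF is unknown.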
